A study of Drosophila melanogaster with 3 samples.

Results

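The intronic peaks described here are places inside introns, away from gene starts, where the GFP-tagged protein of the fly gene CG4820 was found on the genome of Drosophila melanogaster embryos. Each is a peak of the authors' reproducible list on build dm6, called the optimal list. Its summit, the position of highest signal, lies more than 500 bp and at most 5000 bp from the nearest annotated transcription start site (TSS), inside a gene body and in no annotated exon. The rule used positions only and no signal value, and 1174 of the 4876 optimal peaks met it, 24.1% of the list. For ChIP-seq, the sequencing of immunoprecipitated chromatin, an antibody against GFP was used on whole embryos of mixed sex, 0 to 16 h old. All embryos came from a transgenic line, as the labels give it, that stably carries CG4820 fused to GFP at its C-terminal end. There was 1 group with 3 biological replicates, and an untagged or mutant group was not analysed here. Chromatin was sheared by sonication into fragments of 200 to 800 bp, and whole embryos mix all cell types, so the values cannot be assigned to a tissue.

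Introns of fly developmental genes often hold enhancers, short stretches of DNA where transcription factors bind and act on a gene start some distance away. The first intron is a common place for them. A promoter is the stretch at the gene start itself, where the transcription machinery assembles, and fly promoters carry characteristic short motifs such as the DRE and the M1BP motif. A ChIP-seq peak shows where a tagged protein was recovered with DNA, either in direct contact or through other proteins, and does not show whether a gene nearby responds.

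The summit sequences of 6 leading intronic peaks are given first, because later results turn on their base composition. They are the 6 of highest signal whose sequence can be shown, with 50 bases to each side of the summit, taken from RefSeq's genome of this assembly. Capitals mark matches to the TATA box motif, TATAAA on either strand, which was more frequent at intronic summits than beside them. The windows of ush and goe hold it and those of Raf, CG9135, CG11050 and Lk6 do not.
Raf, dm6 chrX:2299142-2299242, plus strand: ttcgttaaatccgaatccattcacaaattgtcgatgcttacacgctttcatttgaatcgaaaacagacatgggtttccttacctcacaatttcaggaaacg
ush, dm6 chr2L:481007-481107, plus strand: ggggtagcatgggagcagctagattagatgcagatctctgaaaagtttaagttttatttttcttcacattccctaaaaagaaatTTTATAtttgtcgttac
CG9135, dm6 chr2L:6051309-6051409, plus strand: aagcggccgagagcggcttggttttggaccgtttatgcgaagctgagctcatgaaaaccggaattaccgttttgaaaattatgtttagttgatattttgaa
CG11050, dm6 chr2L:6612670-6612770, plus strand: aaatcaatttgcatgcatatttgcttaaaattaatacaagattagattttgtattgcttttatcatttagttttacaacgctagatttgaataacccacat
goe, dm6 chrX:16751055-16751155, plus strand: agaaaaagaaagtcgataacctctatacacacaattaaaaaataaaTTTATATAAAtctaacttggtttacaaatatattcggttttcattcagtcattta
Lk6, dm6 chr3R:11760998-11761098, plus strand: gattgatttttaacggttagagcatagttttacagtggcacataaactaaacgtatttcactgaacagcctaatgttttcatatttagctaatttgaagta
These 6 windows held between 58.4% and 77.2% A+T, and none of the 36 motifs searched was found in all of them.

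A second set shows, for each other motif whose frequency at intronic summits differed from the flanks, its carrier of highest signal among peaks whose sequence can be shown. The capitals mark the homeodomain core TAATTA in NFAT, the Forkhead site TGTTTAC in CG9663, the core promoter motif 6 GTATWTTT in ImpL2 (W is A or T), a run of at least 7 A in CG2162, the GAGA repeat GAGAGAG in CG31523 and the E-box CAGCTG in Reph. Matches on either strand count, so the Forkhead site and the GAGA repeat appear here as their reverse complements.
NFAT, dm6 chrX:13640473-13640573, plus strand: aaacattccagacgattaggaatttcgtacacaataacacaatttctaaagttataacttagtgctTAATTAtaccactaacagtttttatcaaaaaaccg
CG9663, dm6 chr2L:3302136-3302236, plus strand: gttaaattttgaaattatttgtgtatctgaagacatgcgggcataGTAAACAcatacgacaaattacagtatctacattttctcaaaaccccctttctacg
ImpL2, dm6 chr3L:4228315-4228415, plus strand: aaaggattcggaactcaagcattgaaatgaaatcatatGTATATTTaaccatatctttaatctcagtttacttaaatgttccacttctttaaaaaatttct
CG2162, dm6 chr3L:3036227-3036327, plus strand: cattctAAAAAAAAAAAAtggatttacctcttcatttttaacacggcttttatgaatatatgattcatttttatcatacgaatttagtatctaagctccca
CG31523, dm6 chr3R:4478283-4478383, plus strand: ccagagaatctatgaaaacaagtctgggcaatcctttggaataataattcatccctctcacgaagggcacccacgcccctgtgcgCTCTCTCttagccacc
Reph, dm6 chr2L:3804715-3804815, plus strand: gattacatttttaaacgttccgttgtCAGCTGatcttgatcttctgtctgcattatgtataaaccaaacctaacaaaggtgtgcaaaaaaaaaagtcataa
The GAGA repeat and this E-box were less frequent at intronic summits than beside them, and their carriers are shown as exceptions. The CG31523 window held 49.5% A+T, below the 25th percentile of 64.4% for all intronic peaks.

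The strongest intronic peak lay in the second intron of Raf, the kinase that links Ras to the MAP kinase cascade. It had a signal of 3545, the authors' enrichment value on this list's own scale, which serves here only to order the peaks of a list. That was rank 7 of the optimal list. In the replicates' own candidate lists the same place ranked 8 in replicate 1, 7 in replicate 2 and 7 in replicate 3, so the 3 replicates placed it almost alike. Its summit was 3726 bp downstream of the nearest TSS of Raf, in an intron of 43637 bp and 2839 bp from the nearest exon. A second Raf peak in the same intron, 2257 bp downstream of that TSS, had a signal of 1019 and ranked 104, 112 and 63 in the replicates.

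The next peak lay in the first intron of ush, which encodes U-shaped, a cofactor of GATA factors. Its nearest TSS was that of the neighbouring gene cbt, 1369 bp away, while the nearest TSS of ush was 4837 bp away. Its signal was 2715, and it ranked 18, 19 and 10 in replicates 1, 2 and 3. Peaks in CG9135 with a signal of 2664, in CG11050 with 2194 and in goe with 1826 followed. The CG9135 summit sat in an intron of 549 bp, and that peak ranked 15, 13 and 20. The CG11050 summit sat in an intron of 140 bp, and that peak ranked 23, 24 and 24. Summits of strong peaks thus lay in short as well as in long introns. The CG11050 interval, chr2L:6612509-6612904, was wider than its intron, and the summit was 61 bp from an exon. Its signal therefore cannot be placed in the intron alone. Lk6, a kinase of the translation initiation factor eIF4E, held a peak of signal 1679 that lay 969 bp upstream of its nearest TSS and ranked 37, 37 and 29.

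Next in signal, HmgZ, an HMG-box chromosomal protein, held a peak of signal 1487 (chr2R:21703165-21703665) that ranked 45, 39 and 44. Tlk, the Tousled-like kinase of chromatin assembly, held one of signal 1418 (chrX:3742044-3742393) that ranked 55, 44 and 42. Adf1, a transcription factor first known from the Adh promoter, held one of signal 1268 (chr2R:6662885-6663263) that ranked 68, 62 and 51. Trl, which encodes the GAGA factor, held one of signal 1266 (chr3L:14759320-14759709) in its second intron, at ranks 51, 61 and 68. In each of these genes the replicate ranks stayed close to the rank in the optimal list. The remaining leading peaks included coro, an actin-binding coronin, with a signal of 1145 (chr2R:6871194-6871568), chif, the activating subunit of the Cdc7 kinase, with 1047 (chr2L:16351054-16351420), and aos, a secreted inhibitor of EGF receptor signalling, with 1002 (chr3L:16480393-16480726). The other hosts among the 20 leading peaks were CG9663, CG32772, CG1677, CG2162, CG12769 and CG3726, with signals of 1305, 1254, 1222, 1192, 1033 and 1002.

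All 20 leading peaks were supported by all 3 replicates, and none ranked below 129 in any replicate. They were picked by the signal of these replicates together, from a list made by comparing ranks, so such agreement was largely set in advance. Of their 60 replicate summits 59 lay within 50 bp of the optimal summit, and the exception was CG9135, 134 bp away in replicate 3. In 15 of the 20 the summit was in a first intron, and in 18 the nearest TSS belonged to the named host.

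**Figure D1:**
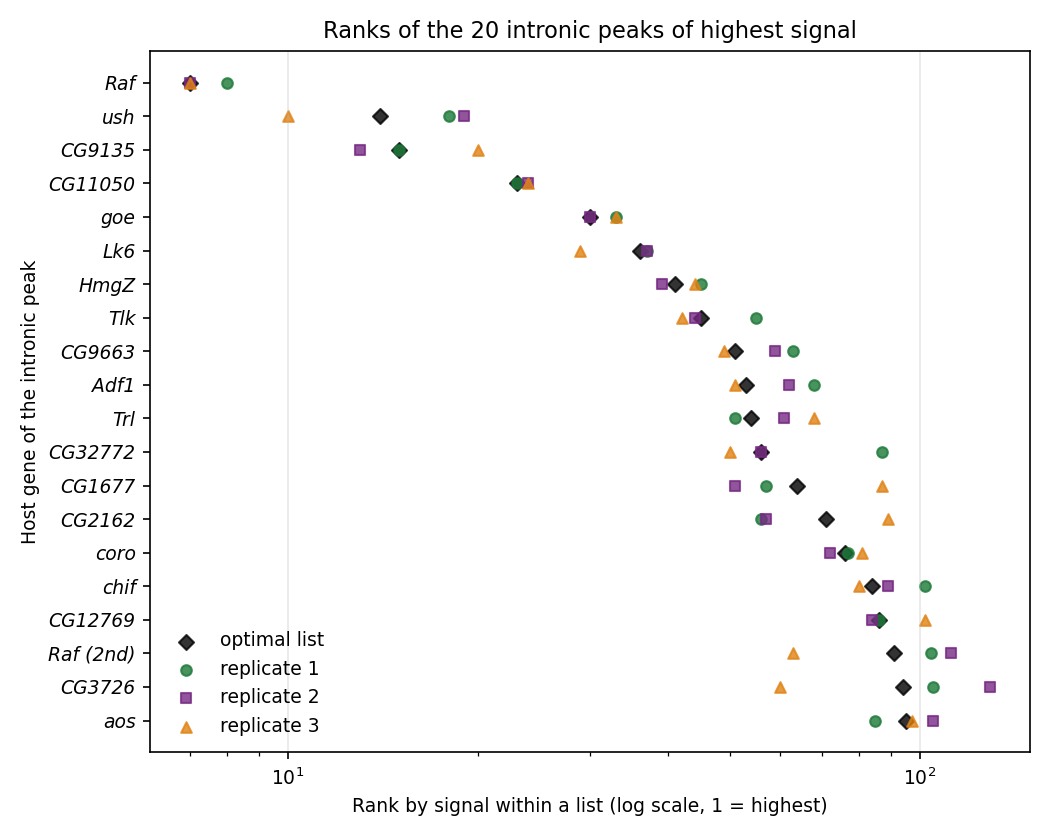
Rank by signal of the 20 intronic peaks of highest signal (log scale, 1 is the highest), in the optimal list (diamonds) and in the candidate lists of replicate 1 (circles), replicate 2 (squares) and replicate 3 (triangles). The Raf peak ranked 7 or 8 in every list, and the replicate ranks of CG3726 ran from 60 to 129.

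Over all 1174 intronic peaks the signal reached 3545 and had a median of 173, with 25th and 75th percentiles of 128 and 273, beside a median of 171 for the whole optimal list. Of the list's 100 highest-signal peaks 21 were intronic peaks of this kind, of the top 250 there were 51, and of the top 500 there were 106. Each of these counts lay a little below their 24.1% share of the whole list. The share above the list's median signal was 50.7%. It was 44.3% for the 501 intergenic peaks at the same distances (odds ratio 1.29, 95% interval 1.04 to 1.60, adjusted p = 0.034 by a two-sided Fisher's exact test). That call was lost under 4 of the alternatives given in the closing section. Among them were leaving out replicate 2 (exact adjusted p = 0.090) and replicate 3 (0.13). Leaving out a replicate kept only the optimal peaks that both other replicates supported, as defined below, and the list was not rebuilt. Against the 551 intronic peaks over 5000 bp from a TSS, of which 43.4% were above the median, the odds ratio was 1.34 (1.09 to 1.65, exact adjusted p = 0.012). Against the 2300 promoter peaks within 500 bp of a TSS, with 53.6%, it was 0.891 (0.772 to 1.03) and did not pass (exact adjusted p = 0.15). These tests and those of replicate support and promoter partners below form a family of 9, with Benjamini-Hochberg adjustment. Their p-values refer to the peaks of these lists, not to embryos in general.

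Each optimal peak was called supported by a replicate if it overlapped 1 of that replicate's 4876 highest-signal candidates. Replicate 1 supported 88.9% of the intronic peaks, replicate 2 supported 89.4% and replicate 3 supported 87.6%, a mean of 88.7% ± 0.921 (SD, n = 3). All 3 replicates supported 851 of the 1174, 72.5%, beside 72.9% of all optimal peaks, so the intronic peaks lay near the list's background. Exactly 2 replicates supported 247 peaks, and 1 supported 76. The share was 69.9% for intergenic peaks (odds ratio 1.14, 0.896 to 1.44, exact adjusted p = 0.29), 75.6% for promoter peaks (0.850, 0.723 to 1.00, exact adjusted p = 0.072) and 69.3% for more distant intronic peaks (1.17, 0.927 to 1.46, exact adjusted p = 0.21). None of these 3 differences passed Fisher's exact test. Support is itself defined by signal rank, and 588 of 595 intronic peaks above the list's median signal had it from all replicates, against 263 of 579 below it. The median distance between optimal and replicate summits was 15, 10 and 15 bp in replicates 1, 2 and 3.

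The strongest intronic peak that lacked support from a replicate was in Smr, which encodes a co-repressor of nuclear receptors, with a signal of 577. It ranked 278 in replicate 1 and 235 in replicate 3 and overlapped no candidate of replicate 2. A candidate summit of replicate 2 lay 93 bp away, however. The Smr summit, 12735668, was close to the end of its interval, chrX:12735464-12735672. The next was alpha-Man-Ia, a mannosidase of glycoprotein processing, with a signal of 304 and no overlapping candidate in replicate 2 either. There the nearest candidate summit of replicate 2 was 209 bp away. In smash the signal was 291 with ranks of 517, 708 and 10913. In Piezo, a mechanically gated ion channel, it was 248 with ranks of 1587, 735 and 6344, and in Dys, the dystrophin gene, 233 with 1566, 756 and 5554. In the last 3 it was replicate 3 that ranked the place low.

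The members nearest to the distance limits were in Eip63F-1, with a signal of 253, and next to mats, with 128, both 501 bp from a TSS. Just outside were the peaks next to CG5854, at 499 bp with a signal of 230, and CG3630, at 495 bp with 159. At the far limit the peaks next to Gug and Pdk, both at 4994 bp, had signals of 331 and 184, and those next to tara, at 5002 bp, and NFAT, at 5024 bp, had 426 and 138.

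Peaks were denser in introns than between genes at the same distances. The intronic sequence that meets the rule came to 24.4 Mb and held 48.1 peaks per Mb (95% Poisson interval 45.4 to 50.9). The intergenic sequence came to 16.2 Mb and held 30.8 per Mb (28.2 to 33.7). The ratio was 1.56 (exact binomial test, two-sided, p = 1.4e-17), with bases that reads may not map to left in both. The test and the Poisson intervals count peaks as independent. Another optimal summit lay within 1000 bp of 264 of the 1174 intronic peaks, so both may be too narrow. Density fell with distance in introns, from 76.1 per Mb between 500 and 1000 bp to 53.1, 37.5, 35.5 and 34.2 per Mb in the following bins. Between genes it was 41.3, 31.1, 25.9, 29.0 and 27.7 per Mb, and from 3000 bp on the 95% intervals of both kinds overlapped. Among chromosome arms the X had the highest intronic density, 60.2 per Mb (53.5 to 67.6), and 2L the lowest of the large arms, 38.5 (33.0 to 44.8). Arms 2R, 3L and 3R lay between them at 45.8, 47.9 and 49.4 per Mb. The small chromosome 4 held 2 intronic peaks, 6.64 per Mb (0.804 to 24.0).

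**Figure D2:**
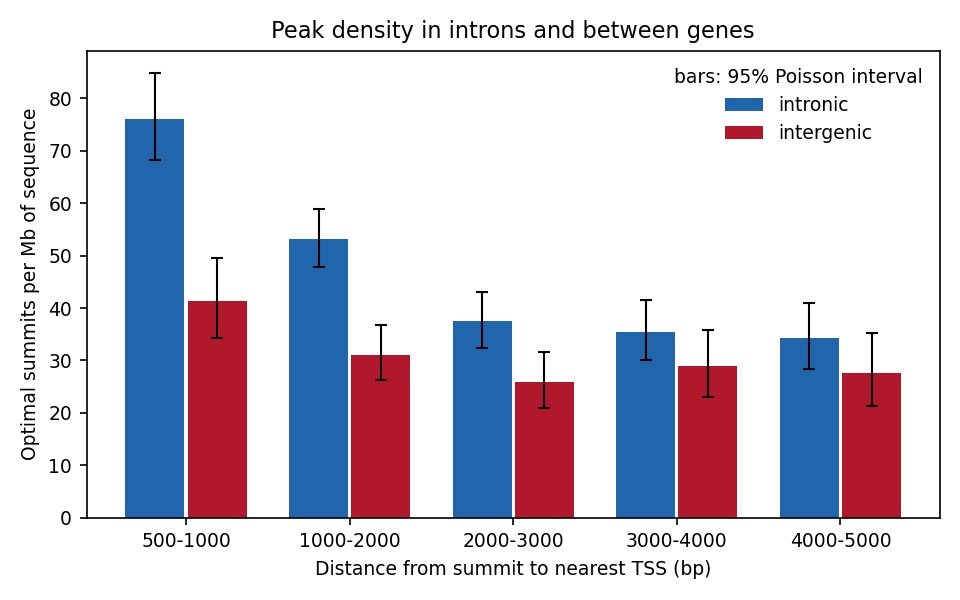
Optimal summits per Mb of sequence (y axis) by distance to the nearest TSS in bp (x axis), in introns (blue) and between genes (red), with 95% Poisson intervals as error bars. Intronic density was 76.1 per Mb in the nearest bin and 34.2 in the farthest, against 41.3 and 27.7 between genes.

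Most intronic peaks lay in a first intron. The summit was in the first intron of at least 1 transcript in 908 of 1174 peaks, 77.3% (Wilson 95% interval 74.9 to 79.6), where first introns made up 57.5% of the eligible intronic bases. Among 3982 intronic candidates of the pooled list that overlap no optimal peak and meet the same rule, 68.2% were in a first intron (odds ratio 1.59, 1.37 to 1.86, Fisher's exact test, adjusted p = 2.1e-09). This and 7 further comparisons chosen after the data were seen were adjusted as a family of 8. Within distance bins the share fell from 83.2% of the intronic peaks at 500 to 1000 bp to 61.3% at 4000 to 5000 bp, against 80.3% and 51.2% of the candidates and 69.4% and 47.7% of the eligible bases. The intronic peaks were above both in all 5 bins.

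The host introns were long, with a median of 7139 bp and a range from 60 to 110416 bp, and 39.0% of the peaks were in introns over 10000 bp. Where several annotated introns held a summit, the shortest was counted. The rule takes only bases over 500 bp from a TSS, and intron lengths were not counted for all eligible bases. These lengths are therefore not shown to be particular to the peaks. The median distance to the nearest exon was 946 bp and to the nearest TSS 1626 bp. In 944 peaks, 80.4%, the nearest TSS belonged to a host gene, and in 230 it belonged to another gene, as for ush and cbt. The host was protein-coding in 97.3%. In 100 peaks, 8.52%, the summit lay in more than 1 gene body, among the leading ones HmgZ with HmgD, chif with Hyls1 and aos with CG33158. Another optimal summit lay within 1000 bp of 264 intronic peaks, 22.5%.

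The gene next to an intronic peak had a peak at a promoter more often than the gene next to an intergenic one. Of the 1174 intronic peaks 451, 38.4%, had a promoter partner, meaning that the gene of the nearest TSS had another optimal summit within 500 bp of one of its TSSs. Over the whole optimal list the share was 24.7%. It was 18.8% for intergenic peaks (odds ratio 2.70, 95% interval 2.09 to 3.52, Fisher's exact test, adjusted p = 2.9e-15), 25.8% for intronic peaks beyond 5000 bp (1.80, 1.43 to 2.27, adjusted p = 6.7e-07) and 20.5% for promoter peaks, which must have a second summit to count (2.42, 2.07 to 2.84, adjusted p = 7.5e-28). Against the intronic candidates, with 30.9%, the odds ratio was 1.40 (1.22 to 1.60, exact adjusted p = 3.4e-06). The number of annotated TSSs moved with this comparison: the gene nearest to an intronic peak had a median of 2, and the gene nearest to an intergenic peak 1. Among nearest genes with 1 TSS the shares were 96 of 429 (22.4%) and 62 of 383 (16.2%), an odds ratio of 1.49 (1.03 to 2.17, exact adjusted p = 0.031). Among those with 2 or more they were 47.7% and 27.1% (2.45, 1.57 to 3.89, exact adjusted p = 4.1e-05). Peaks that share a nearest gene share this value, as all 10 in shn do, and the tests above count them as independent. With 1 peak per nearest gene, that of highest signal, the shares were 306 of 851 intronic and 77 of 415 intergenic peaks, an odds ratio of 2.46 (1.84 to 3.32, exact adjusted p = 2.6e-10 over a pair of comparisons). Restricted further to genes with 1 TSS it was 1.60 (1.06 to 2.42, exact adjusted p = 0.024). Of the leading genes, Trl, aos, Lk6 and CG11050 had a promoter partner, and Raf, goe, CG9135 and Tlk did not.

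Counted by gene, 793 of the 9105 protein-coding genes with eligible intronic sequence hosted an intronic peak, 8.71%. The share followed the length of that sequence. It was 0.602% of genes with up to 1000 bp of it, 13.9% of those with up to 5000 bp, 25.7% up to 10000 bp and 42.1% above. Among genes with 1000 to 5000 bp, 39.2% of 286 hosts and 21.8% of 1778 other genes had a promoter summit, and above 10000 bp these shares were 44.4% of 297 and 18.9% of 408. At up to 1000 bp they were 23.5% of 34 and 22.3% of 5618, with Wilson intervals that overlapped.

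At least 2 intronic peaks were found in 250 genes and at least 5 in 21. CG1677 held the most, 14 peaks over 46.7 kb of the X chromosome, of which 11 were supported by all replicates. For none of the 14 was CG1677 the nearest gene start. They lay nearest to 6 other genes, including brk, which encodes the repressor Brinker, Dok, an adaptor protein, and CBP. The strongest, 1668 bp upstream of CBP, had a signal of 1222 and ranked 57, 51 and 87. Next came a peak 822 bp downstream of the TSS of Dok with a signal of 690 and ranks of 203, 159 and 242. The 2 peaks upstream of brk, at 752 and 1984 bp, had signals of 508 and 169.

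In shn, which encodes the zinc-finger factor Schnurri of Dpp signalling, all 10 intronic peaks had a TSS of shn as the nearest. They spanned 28.5 kb with signals between 108 and 599, and 6 were supported by all replicates. Among those 6, the peaks of signal 311 and 114 overlapped and had the same replicate ranks, 1197, 893 and 842. Their support thus rested on the same candidates. Tlk held 8 peaks over 32.2 kb, 7 of them supported by all, with signals between 121 and 1418. CHES-1-like, a forkhead transcription factor gene, held 8 over 14.8 kb, 6 supported by all, and 4 of them had signals from 463 to 500. In pnt, which encodes the ETS factor Pointed that acts downstream of MAP kinase, the 8 peaks were all weak, with signals between 102 and 154, and 4 were supported by all replicates. For 4 of the 8 the nearest TSS was that of pnt, and for the others that of lncRNA:CR46090. The number of peaks in a gene and their strength thus did not go together in these 5 genes.

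Gene lists of signalling pathways and tissues were drawn up with earlier results of these data known, so their counts are given beside the 8.71% of all eligible genes and with no test. Hosting followed the length of eligible sequence, so the density per Mb is given as well, beside 48.1 per Mb for all eligible intronic sequence. Peaks were counted by host gene, and the nearest TSS could be that of another gene. For the strongest peaks in drk, mam and KCNQ it was that of mars, CG18371 and mlt. Of 35 eligible genes of the EGF receptor, Ras and MAPK pathway, 18 hosted 42 intronic peaks (51.4% of the genes, 167 per Mb). Of these 42 peaks 26 were supported by all replicates, 61.9%, and their median signal was 145, below the 173 of all intronic peaks. Besides Raf, pnt and aos they included edl, which encodes a regulator of Pointed and Yan, with a strongest signal of 702, S, which encodes Star, with 537, drk, the Grb2 adaptor, with 487, aop, which encodes the ETS repressor Yan, with 411, and the receptor gene Egfr with 4 peaks of at most 129.

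Of the BMP and activin pathway, 7 of 20 eligible genes hosted 19 peaks (161 per Mb), 10 of which were those of shn, with a median signal of 149. The SMAD gene Mad held 1 peak of signal 606, 697 bp from its TSS. Of the Hippo pathway 6 of 14 genes hosted a peak (112 per Mb), led by app at 316 and crb at 288. Of the Wnt pathway it was 9 of 26 (84.2 per Mb), led by the glypican gene dlp at 456 and by nkd at 360, a feedback inhibitor that is also on the list of segmentation genes. Of the insulin and TOR pathway 6 of 25 genes hosted a peak (159 per Mb), led by the insulin receptor gene InR at 516. Of the Hedgehog pathway it was 2 of 10 (65.2 per Mb), boi at 316 and ptc at 176, and of the Notch pathway 3 of 18 (31.8 per Mb), led by mam, a coactivator of Notch target genes, at 520.

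Among lists of nuclear proteins, 9 of 40 Polycomb and trithorax group genes hosted 18 peaks (140 per Mb) with a median signal of 215. Trl led with 1266, followed by the histone methyltransferase gene trx with 760 and by tna with 389. The ecdysone and nuclear receptor list had 8 of 24 genes (55.9 per Mb), led by Hr3 at 561 and EcR, the ecdysone receptor gene, at 228. Of the insulator and promoter architecture list 2 of 18 genes hosted 4 peaks, Trl and lola, which came to 152 per Mb. Circadian clock genes hosted in 4 of 14 (59.5 per Mb), led by Pdp1 at 371. Hox and homeobox genes were near the background per gene at 9 of 69, 13.0%, and below it per Mb at 28.6, with Antp at 266 and Abd-B at 264 in the lead. Segmentation genes hosted in 2 of 19 (53.2 per Mb).

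Among tissue lists, 10 of 25 neural determination genes hosted a peak (56.8 per Mb), with a median signal of 195 and led by brat, a translational repressor of neuroblast daughters, at 539 and grh at 475. Mesoderm and muscle genes hosted in 9 of 46 (40.4 per Mb), led by zfh1 at 638. Axon guidance and adhesion genes had long eligible introns and hosted in 15 of 73 (32.0 per Mb), with a median signal of 188 and led by kirre, an adhesion protein of myoblast fusion, at 643. Ion channels and transporters of neurons hosted in 7 of 51 (21.1 per Mb), led by KCNQ at 537. No eligible ribosomal protein gene hosted an intronic peak, 0 of 25 cytosolic and 0 of 22 mitochondrial, which allows shares of up to 12% and 13.6%. Their eligible introns were short, with medians of 114 and 113 bp.

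**Figure D3:**
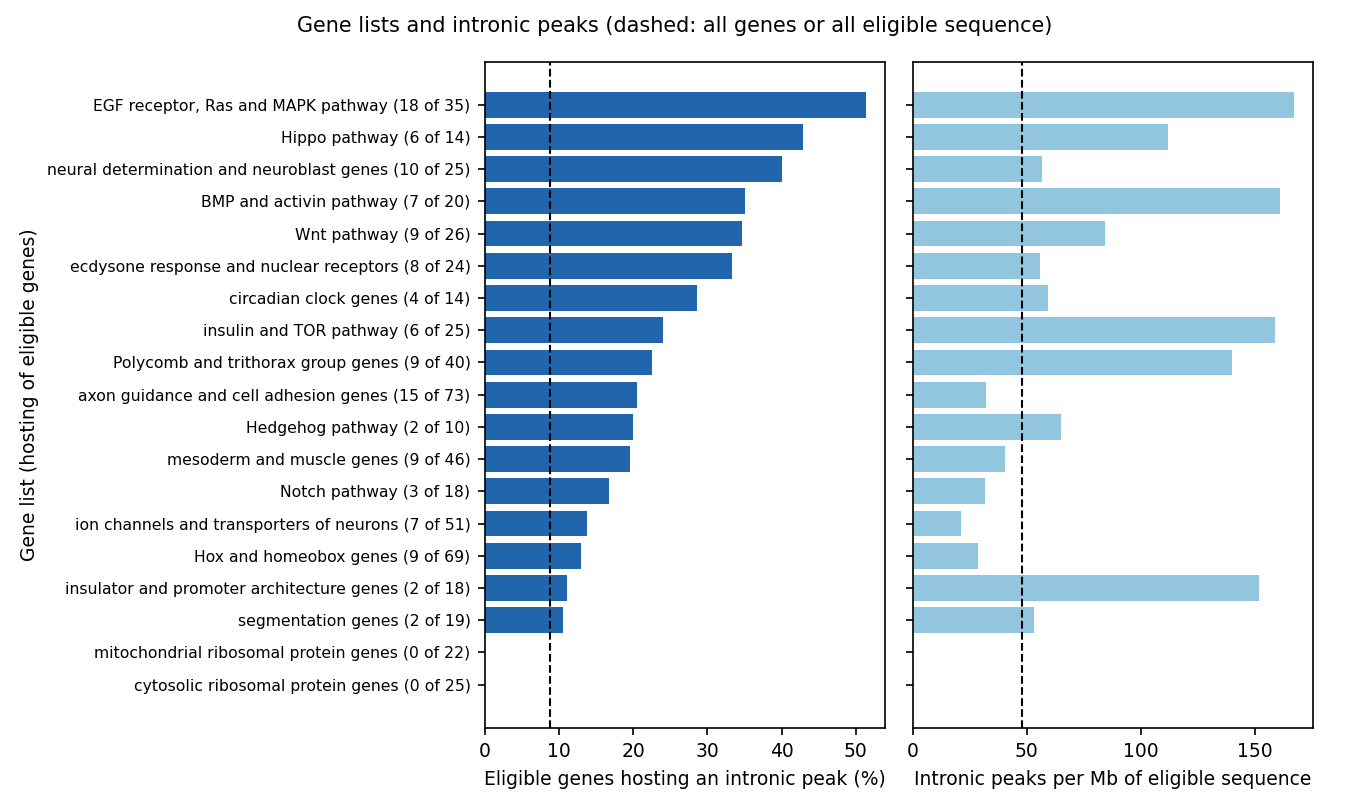
Left, share of the eligible genes of each list that host an intronic peak (%), with the number of hosting and eligible genes beside each name; right, intronic peaks per Mb of the list's eligible sequence. The dashed lines mark 8.71% of all eligible protein-coding genes and 48.1 peaks per Mb of all eligible intronic sequence, and the EGF receptor, Ras and MAPK list is highest in both panels at 51.4% and 167 per Mb.

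Summits of intronic peaks were rich in A+T. The bases within 50 bp of the summit held a median of 69.3% A+T, against 55.4% in as many bases of flank centred 300 bp away and 60.8% of all eligible intronic bases. The summit was richer than its own flank in 1017 of 1174 peaks, 86.6% (exact sign test, two-sided, p = 1.69e-163). The share was 80.2% for intergenic peaks (odds ratio 1.60, 1.20 to 2.12, Fisher's exact test, adjusted p = 0.0015), 77.9% for promoter peaks (1.84, 1.51 to 2.25, adjusted p = 1.4e-09) and 57.9% for the intronic candidates (4.72, 3.93 to 5.68, adjusted p = 5.8e-81). Against more distant intronic peaks, with 87.8%, no difference passed (0.897, 0.650 to 1.23, exact adjusted p = 0.54). The median A+T at summit and flank was 67.3% and 53.5% for intergenic peaks and 67.3% and 55.4% for promoter peaks. It was 68.3% and 54.5% for more distant intronic peaks, so a rise at the summit was not particular to the intronic peaks described here. For the candidates, which may largely be background, it was 61.4% and 58.4%, beside the 60.8% of all eligible intronic bases. In 25 bp bins the A+T content of intronic peaks was highest at the summit, 69.1%, and lowest about 312 bp away, 55.1%, before it rose again to 58.8% at the outermost bins. The flank windows, centred 300 bp away, thus lay in this minimum. The contrast of summits with them was wider than with the outermost bins. In 4 equal groups of intronic peaks, from the weakest to the strongest by signal, the median at the summit was 68.3%, 69.3%, 69.3% and 70.3%. Among the 20 leading peaks it ran from 45.5% in coro to 77.2% in goe, with a median of 68.8%. The part of base composition in where peaks were called was not tested.

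**Figure D4:**
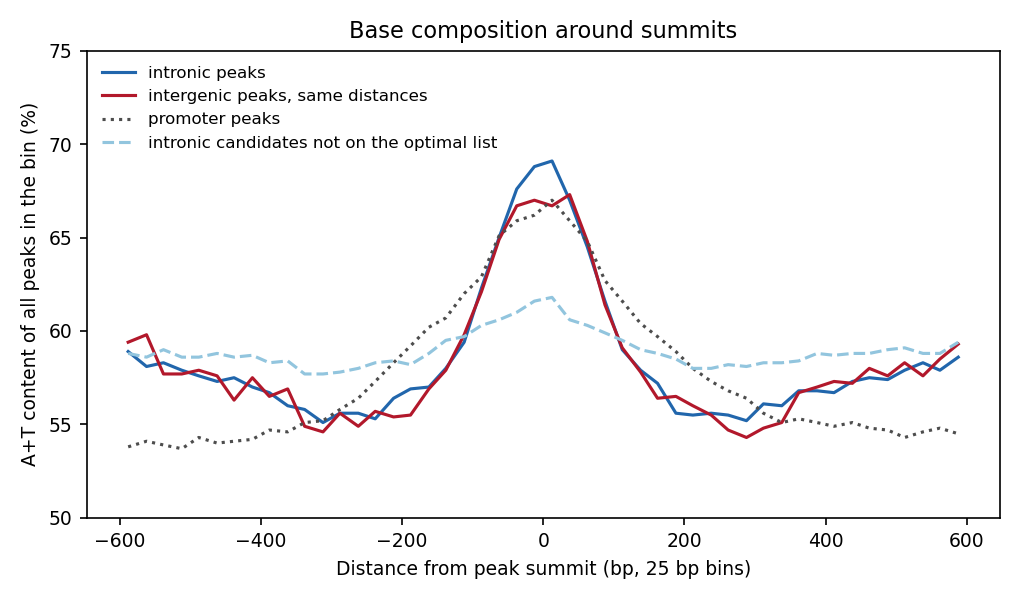
A+T content in % (y axis, drawn from 50 to 75) in 25 bp bins by distance from the summit in bp (x axis), for intronic peaks (blue), intergenic peaks at the same distances (red), promoter peaks (dotted) and intronic candidates that missed the optimal list (dashed). Intronic peaks reached 69.1% at the summit and candidates 61.8%.

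The same pattern showed in short motifs. Of 36 motifs sought on both strands within 50 bp of the summit, 7 (19.4%) differed from an equal number of flank positions (exact sign test, Benjamini-Hochberg over motifs), and 12 had an unadjusted p under 0.05. The TATA box, TATAAA, was at 286 summits and 123 flanks (exact adjusted p = 9.1e-17), and 14.4% of all eligible windows of this length hold it. The homeodomain core TAATTA was at 129 summits and 55 flanks (exact adjusted p = 3.4e-07), with 8.44% of eligible windows. For the TATA box that is 24.4% of summits and 10.5% of flanks. For the homeodomain core it is 11.0% and 4.68%, so its flanks lay farther from the eligible windows than its summits did. Core promoter motif 6 was at 57 and 29 (exact adjusted p = 0.018; 2.65% of eligible windows), the run of 7 A at 196 and 144 (exact adjusted p = 0.018; 11.4%), and the Forkhead site at 44 and 22 (exact adjusted p = 0.047; 2.52%). The Forkhead call was lost in 10 of 14 alternative settings, and those of motif 6 in 4 and of the A run in 2, while the TATA box and homeodomain calls held in all 14. These motifs consist mostly of A and T, and the part of the A+T content in their counts was not tested.

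As a description of that, the letters of each motif were also read backwards, which keeps the composition and changes the word. AAATAT, the TATA box backwards, was at 425 summits and 171 flanks, a ratio of 2.49 beside 2.33 for the TATA box itself. ATTAAT, the homeodomain core backwards, was at 120 and 58, a ratio of 2.07 beside 2.35. For core promoter motif 6 the ratios were 1.70 backwards and 1.97 forwards, and for the Forkhead site 1.28 and 2.00. A rise at the summit was also seen for these reversed words, but they are not free of the named sites. Where W is A, TTTWTATG, motif 6 backwards, holds the TATA box on the other strand. ATTAAT shares the letters TAAT with the homeodomain core. The part of composition in these counts was not tested. Of the 20 words of 8 letters that most favoured summits among odd-ranked intronic peaks, 18 passed on the 587 even-ranked ones. All 20 consist of A and T alone, such as TTTAAAAA at 41 summits and 9 flanks (exact sign test, adjusted p = 6.6e-05).

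The GAGA repeat, to which the GAGA factor binds, was at 11 summits and 55 flanks (exact sign test, adjusted p = 9.4e-08), a call held in all 14 settings. That is 0.937% of summits and 4.68% of flanks, beside 1.52% of all eligible windows, so the flanks lay farther from the eligible windows than the summits did. By Fisher's exact test the summit share did not differ from that of intergenic (1.40%, adjusted p = 0.98), promoter (0.913%, adjusted p = 1) or candidate windows (1.56%, adjusted p = 0.26). The E-box CAGCTG was at 30 summits and 58 flanks (exact adjusted p = 0.018; 3.85%), with the call lost in 4 settings. Read backwards as GTCGAC it was at 6 and 20.

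**Figure D5:**
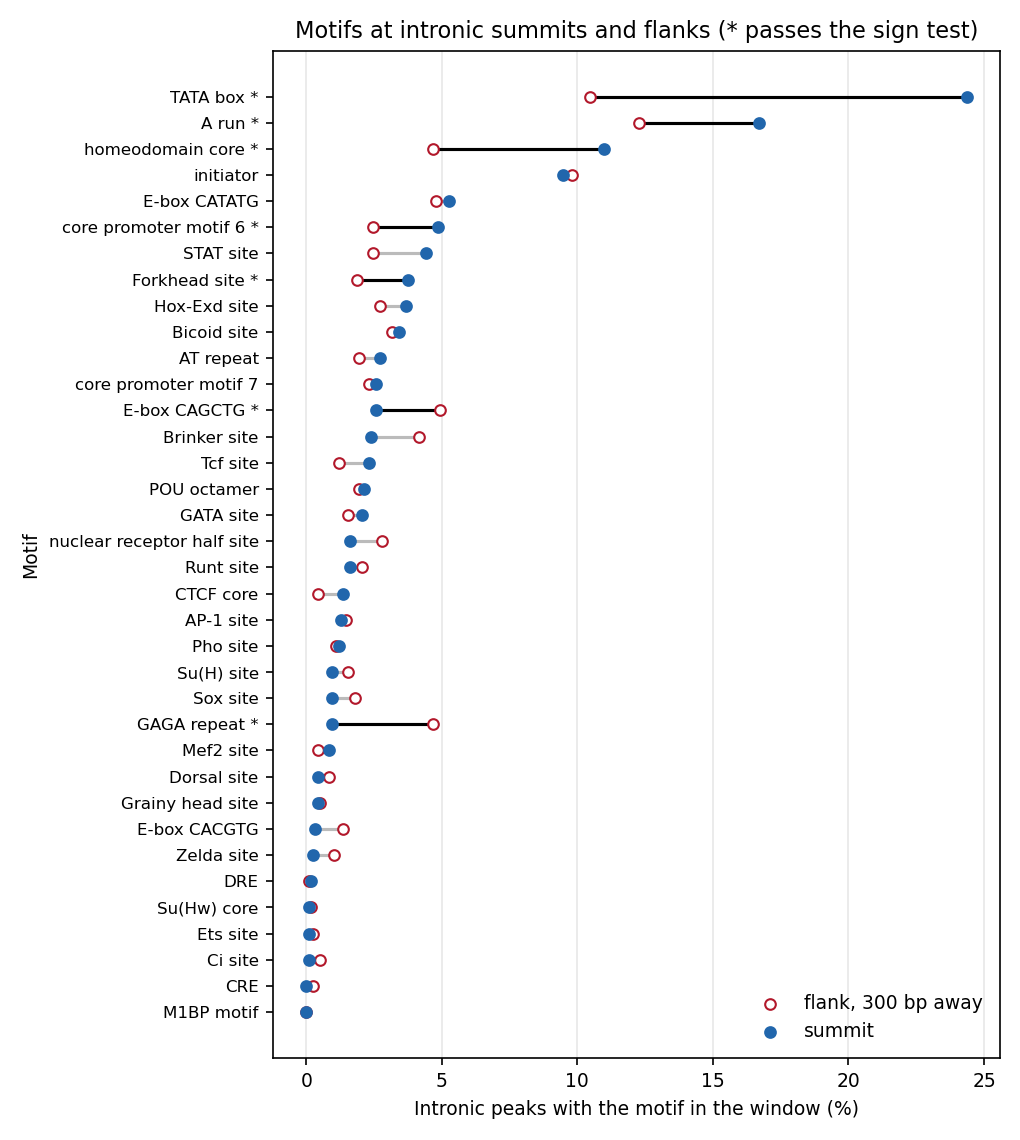
Share of the 1174 intronic peaks (%, x axis) with each of the 36 motifs at the summit (filled) and at the flank 300 bp away (open), with an asterisk and a black line where the exact sign test passed. The TATA box was at 286 summits and 123 flanks, and the GAGA repeat at 11 and 55.

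Compared with intergenic summits at the same distances, no motif differed by Fisher's exact test (0 of 36, 0% passing; 4 had an unadjusted p under 0.05, and the lowest adjusted p was 0.13). Those 4 were the Ets, STAT and Zelda sites and the CTCF core. The TATA box was in 24.4% and 21.4% of intronic and intergenic windows and the homeodomain core in 11.0% and 11.6%.

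Compared with promoter peaks, 5 of 36 motifs (13.9%) differed. Of the fly core promoter motifs, 3 were rarer at intronic than at promoter summits. The DRE, TATCGATA, was in 0.170% of intronic and 3.65% of promoter windows (Fisher's exact test, adjusted p = 8.6e-12; 0.224% of eligible windows). Core promoter motif 7, CAKCNCTR in the usual one-letter codes, was in 2.56% and 9.52% (exact adjusted p = 2.1e-14; 2.72%). The M1BP motif GGTCACACT was in 0 of 1174 intronic windows, which allows up to 0.256%, and in 1.17% of promoter windows (exact adjusted p = 2.1e-04; 0.0437%). The intronic shares of the first 2 lay near those of all eligible windows. Promoter peaks lie near gene starts by definition, and these motifs are characteristic of fly promoters. Their share in all promoter windows was not counted, so the part of the position rule in these 3 differences was not tested. The E-box CATATG was more frequent in introns, 5.28% against 3.30% (exact adjusted p = 0.042; 3.53%), as was the run of A, 16.7% against 12.3% (exact adjusted p = 0.0053). The CATATG call was lost in 6 of 12 settings, including each omission of a replicate, which kept only peaks that both others supported. That of the A run was lost in 3 and that of the M1BP motif in 2, while the DRE and motif 7 calls held in all 12. Other core promoter motifs did not pass here, with the TATA box in 24.4% of intronic and 24.5% of promoter windows and motif 6 in 4.86% and 4.91%.

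Compared with the 3982 intronic candidates, 2 motifs (5.56%) differed. The TATA box was in 24.4% of intronic peaks and 15.9% of candidates (Fisher's exact test, adjusted p = 3.0e-09), and the homeodomain core in 11.0% and 7.58% (adjusted p = 0.0056, a call lost in 2 of 12 settings). Of all eligible windows 14.4% held the TATA box and 8.44% the homeodomain core, and the candidates may largely be background. The candidates' summits were also lower in A+T, at a median of 61.4%, and the part of that difference in these counts was not tested.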

How the data were processed

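The authors deposited candidate peak lists of 3 replicates, a pooled list, labelled as peaks and background, and the optimal list on build dm6. Per the deposited README files, replicate lists came from each replicate's alignment and a control, the pooled list from all alignments, and the optimal list from these by comparing ranks (IDR, irreproducible discovery rate). Not given in the sources used here are the aligner, peak caller, IDR limit and how signal was normalized. The deposited signal values were ranked within a list only. No read totals are given, so depth is unknown, and intervals cover counting error only. The dm3 lists were not used.

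Summits came from the deposited offsets. In 907 of 1174 intronic peaks the interval was 416 bp long, and 38 neighbouring pairs overlapped. Gene models were Ensembl BDGP6.54, release 115, without transposable elements and pseudogenes (17896 genes). A gene or base was eligible where a summit there would meet the position rule. Motifs were placed by their centre. Adjustment of p-values followed Benjamini and Hochberg, with 0.05 as the limit. The members, gene lists, motifs and tests were chosen with earlier results of these data known, and the named peaks are the 20 strongest, the 5 strongest without full support, those at the limits, the 5 leading hosts, carriers of passing motifs and up to 3 hosts a list. Further hosts of the EGF receptor, Ras and MAPK list, reversed motifs, the splits by number of TSSs and by nearest gene and the family of 8 comparisons were chosen after seeing the data. The result of 1 gene list is not reported here. Window tests were checked on simulated positions, drawn at random on arm 3L, with and without a planted motif. These were not matched to the A+T profile of the summits, so the check does not cover it. Tests used SciPy 1.17.1, tables pandas 2.3.3 and NumPy 2.4.6, and figures matplotlib 3.10.9, under Python 3.11.15.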

Additional observations from a re-analysis of the deposited data

How the results depend on the processing

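The intronic excess in density and in promoter partners passed in all alternatives run for it (ratio 1.36 to 1.78, odds ratio 1.49 to 3.52, the lowest for nearest genes with 1 TSS, a split chosen after seeing the data). The share of intronic peaks above the median signal against intergenic ones no longer passed with protein-coding genes only (odds ratio 1.24) or a lower limit of 1000 bp (1.23), and was 1.25 to 1.34 with 1 replicate left out, without a pass when replicate 2 or 3 was left out. Against promoter peaks it passed at a lower limit of 1000 bp (0.822) and an upper limit of 10000 bp (0.849). Leaving out a replicate kept only the optimal peaks that both others supported, without rebuilding the list. This left 922, 929 and 949 intronic peaks without replicates 1, 2 and 3. The number of intronic peaks was 595 among peaks above the median signal. Replicate support against intergenic peaks was 0.764 among those and 0.718 with 2 times as many candidates counted, and passed in neither. More motifs or fewer passed against flanks: 8, 3, 2, 2 and 8 were more frequent with a lower limit of 250 or 1000 bp, peaks above the median, a window of 25 bp and a flank at 200 bp, and 1, 4, 5, 4 and 5 less frequent with limits of 1000 and 10000 bp, a window of 100 bp and flanks at 200 and 500 bp. Against intergenic peaks 1, 2, 1 and 1 motifs were less frequent with protein-coding genes, limits of 250 and 10000 bp and a window of 100 bp, among the Ets site and the CTCF core. Against promoters 4, 0, 1 and 0 were more frequent with limits of 250 and 1000 bp, peaks above the median and a window of 25 bp, 1 without any replicate in turn (lowest and highest 1), and 5 and 6 less frequent with limits of 250 and 10000 bp. Against candidates 4, 1, 1 and 4 were more frequent with a limit of 10000 bp, peaks above the median and windows of 25 and 100 bp, and 2 and 1 less frequent with the limit of 10000 bp and the window of 100 bp. With a window of 25 bp 7 words passed. A window or subset with fewer bases or peaks has fewer matches to test, and otherwise the cause was not tested. No paired analysis was possible because there was 1 group.

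Depth is unknown, the control was not analysed here, and unmappable sequence stayed in the densities, so the values describe the deposited lists. Replicates came from 1 line.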
